A study of Mus musculus with 21 samples.

Results

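The genes described here are 4 regulators of G protein signalling, Rgs2, Rgs3, Rgs4 and Rgs5, and 4 G protein-coupled receptors of the heart, Gpr22, Adrb1, Adra1a and Chrm2. They are 8 of the 20960 genes in the deposited count table and were chosen by name. The choice was made with earlier results of the same libraries known, the higher Rgs2 level in whole hearts of exposed mice among them. Every treatment and section value given for these genes is therefore a description of these libraries. An adjusted p-value shows where a gene stands among all genes tested, and it is no independent support for the gene's change.

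The 4 nanoplastics mice and 3 control mice were adult wild-type males. For 8 weeks the former received polystyrene nanoplastics, which are nanometre-sized particles of plastic, and the latter distilled water. After a flush with cold buffer, every heart was cut into 3 pieces labelled atrial, right ventricular and left ventricular, and 1 bulk library was made from each piece, 21 in all. The sources used here give no strain, exact age, dose or particle size.

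A G protein-coupled receptor that has bound its ligand loads the alpha subunit of a G protein with GTP, and the active alpha subunit and the freed beta-gamma pair pass the signal on until the GTP is hydrolysed. Rgs proteins speed that hydrolysis and so shorten the signal: Rgs2 acts mainly on Gq, and Rgs3, Rgs4 and Rgs5 act on Gi and Gq. In the heart, noradrenaline raises rate and force through Adrb1, which couples to Gs and cyclic AMP, and acts through Adra1a on Gq and phospholipase C, while acetylcholine slows the beat through Chrm2, which couples to Gi and opens the potassium channel built from Kcnj3 and Kcnj5.

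Library totals ran from 413436 to 2439314 counts in 20 libraries. The right ventricle of nanoplastics mouse 2 held 4662 counts, where 1 count equals 214.5 CPM (counts set to the same total in all libraries) before scaling and a gene with no count could lie anywhere up to 643.5 CPM, the level of 3 counts. This library gave 1 count for Gpr22 and 0 for the other 7 genes; levels leave it out, and fold changes include it as designed. Heart muscle markers (6 genes, troponins among them) summed to 38200 to 63700 TMM-scaled CPM in the other 20 libraries, as heart tissue would give. The section labels were not borne out by muscle markers: the 4 ventricular muscle markers summed to 14800 to 22500 CPM in libraries labelled atrial and 16200 to 23500 CPM in those labelled ventricular. Atrial muscle RNA did not follow the label either. Before scaling, Myl7, Myl4 and Sln summed to 38990 CPM in the atrial library of nanoplastics mouse 1 and 2969 CPM in that of mouse 4, to between 10.14 and 296.7 CPM in the other 5 atrial libraries, and to 1605 CPM in the left ventricular library of the latter mouse. The atria and the atrial section below therefore mean the piece so labelled. Unless said otherwise, levels are CPM after TMM scaling (trimmed mean of M-values), which corrects for library composition. A gene was called at an adjusted p under 0.05 in edgeR's quasi-likelihood test across all genes tested. For treatment, the p-values measure the spread between these few mice. For sections, and for treatment effects compared between sections, mouse was a block, and they measure the spread left within mice.

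The 8 genes covered a wide range of RNA levels in control hearts. Per kilobase of the longest annotated transcript, with the 3 sections of a mouse summed, Rgs5 was highest at 75.5 ± 9.05 CPM per kb (SD, n = 3). Rgs5 is a known marker of pericytes, the cells that wrap capillaries. Gpr22, an orphan receptor of heart muscle whose ligand is not known, followed at 17 ± 3.67 CPM per kb, then Rgs2 at 10.4 ± 0.81 and Chrm2 at 6.89 ± 0.254. Rgs4 stood at 3.36 ± 1.06, Adrb1 at 1.62 ± 0.393, Rgs3 at 1.54 ± 0.282 and Adra1a at 0.689 ± 0.143 CPM per kb. The ranges of neighbours in this order did not overlap, except those of Adrb1 and Rgs3, whose order per kb is not resolved by 3 mice. The kit adds its barcode at the 5′ end, so counts need not grow with transcript length, and the order depends on this division. Without it, Chrm2 at 39.1 ± 1.44 CPM stood above Rgs2 at 31.5 ± 2.45 CPM (SD, n = 3). Likewise, Rgs3 at 7.24 ± 1.33 CPM then stood above Adrb1 at 4.78 ± 1.16 CPM.

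Promoter sequences are shown for Rgs2, Rgs5 and Gpr22, the 3 genes called in at least 1 comparison, because these are the genes whose RNA level the results turn on. RefSeq promoter entries on build GRCm38.p6 matched 7 of the 8 genes (not Adra1a), and the sources used here do not give the build behind the counts. Each run is the 250 bases before the annotated start, read 5′ to 3′ on the gene's strand, with matches of the searched motifs in capitals. The regions are chr1:144004150-144004399 on the minus strand for Rgs2, chr1:169655251-169655500 on the plus strand for Rgs5 and chr12:31713884-31714133 on the minus strand for Gpr22.
Rgs2: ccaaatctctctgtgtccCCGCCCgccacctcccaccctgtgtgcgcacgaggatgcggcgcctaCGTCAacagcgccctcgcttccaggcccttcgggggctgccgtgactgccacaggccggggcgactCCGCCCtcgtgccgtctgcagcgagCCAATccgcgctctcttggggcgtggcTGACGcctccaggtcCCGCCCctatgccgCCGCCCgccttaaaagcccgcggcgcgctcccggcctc
Rgs5: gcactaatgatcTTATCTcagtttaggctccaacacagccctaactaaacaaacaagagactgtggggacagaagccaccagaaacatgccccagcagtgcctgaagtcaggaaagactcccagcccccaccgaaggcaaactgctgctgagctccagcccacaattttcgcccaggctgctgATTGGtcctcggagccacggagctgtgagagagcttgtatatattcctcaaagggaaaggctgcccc
Gpr22: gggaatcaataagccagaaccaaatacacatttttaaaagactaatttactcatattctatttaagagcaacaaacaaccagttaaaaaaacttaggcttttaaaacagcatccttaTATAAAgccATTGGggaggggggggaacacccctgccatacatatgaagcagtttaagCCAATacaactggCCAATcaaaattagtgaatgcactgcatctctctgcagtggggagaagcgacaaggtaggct
The motifs searched on both strands were TATAAA (a core promoter box), CCAAT (the motif of NF-Y), GGGCGG (the motif of Sp1), TGACG (the short form of the cyclic AMP response element), TGACGTCA (its full form, which contains the short one), TGACTCA (AP-1 site), CACGTG (E-box) and AGATAA (the motif of GATA factors). The Rgs2 window holds 4 matches of GGGCGG, 2 of TGACG and 1 of CCAAT, with 72.4% G and C and 30 CpG pairs, against medians of 52.4% and 6 over 32851 mouse promoter windows of the same length. The Rgs5 window holds 1 match each of CCAAT and AGATAA, with 53.6% G and C and 4 CpG pairs. The Gpr22 window holds 1 match of TATAAA and 3 of CCAAT, with 39.6% G and C and 1 CpG pair. Over all windows, CCAAT occurs in 33.8%, GGGCGG in 32.7%, TGACG in 17.8%, TATAAA in 12.4%, AGATAA in 9.99%, CACGTG in 6.02%, TGACTCA in 4.46% and TGACGTCA in 1.55%. The 3 windows thus differ most in base composition, with Rgs2 rich and Gpr22 poor in G and C. A match is a run of letters and not evidence of binding, and no factor was measured here.

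Rgs2, the regulator that acts mainly on Gq, had the largest treatment difference of the tested genes among the 8 in the whole heart, the atria and the left ventricle, and in each section its levels were above those of controls. In the right ventricle, Rgs5 differed slightly more. In the atrial section, the control mice had 22.5, 29.7 and 24.5 CPM and the nanoplastics mice 109, 49.0, 105 and 64.1 CPM. In the right ventricle, the controls had 38.9, 32.3 and 39.8 CPM and nanoplastics mice 1, 3 and 4 had 105, 46.9 and 57.7 CPM. Left ventricular values were 36.8, 39.5 and 16.9 CPM in controls and 90.2, 43.0, 73.0 and 46.8 CPM in nanoplastics mice. Nanoplastics mouse 1 was highest in each section, mouse 2 was lowest in the atria and left ventricle, and the groups did not overlap in any section, as was also true of 7.31% of genes tested in the atria, of 12.2% in the right ventricle and of 7.08% in the left. Across sections, all 11 nanoplastics libraries (43.0 to 109 CPM) lay above all 9 control libraries (16.9 to 39.8 CPM), which held for 71 of 6269 genes (1.13%). With libraries scaled by their totals alone, 8 of the 11 lay above the highest control (36.5 to 101 CPM against 16.9 to 43.5 CPM). By totals, the groups stayed apart in the atria, where the lowest nanoplastics value was 45.7 CPM and the highest control 33.3 CPM. They overlapped in the right ventricle (nanoplastics mouse 3 at 41.8 CPM, control mouse 3 at 43.5 CPM). They also overlapped in the left ventricle (nanoplastics mice 2 and 4 at 36.5 and 42.2 CPM, control mouse 2 at 42.3 CPM).

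With the sections of each mouse summed, Rgs2 stood at 32.8, 33.1 and 28.7 CPM in controls and at 94.3, 44.5, 72.5 and 55.5 CPM in nanoplastics mice, without overlap (7.94% of genes tested were higher in the same way). It rose from 31.5 ± 2.45 CPM (SD, n = 3) to 66.7 ± 21.7 CPM (SD, n = 4), a log2 change of 1.08 (SE 0.20, edgeR adjusted p = 0.0183). The spread among nanoplastics mice was wider than among controls. Rgs2 was 1 of 217 genes called among 8485 (2.56%, with 1.79% higher and 0.766% lower); the calls were 152 higher and 65 lower, and under scaling by totals 43 and 754, a scaling that moved the median log2 change of all genes from -0.03 to -0.27. With totals the log2 change of Rgs2 was 0.82 (adjusted p = 0.0198). In bulk tissue, a change in the number of cells of a type and a change in RNA per cell cannot be told apart.

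**Figure D1:**
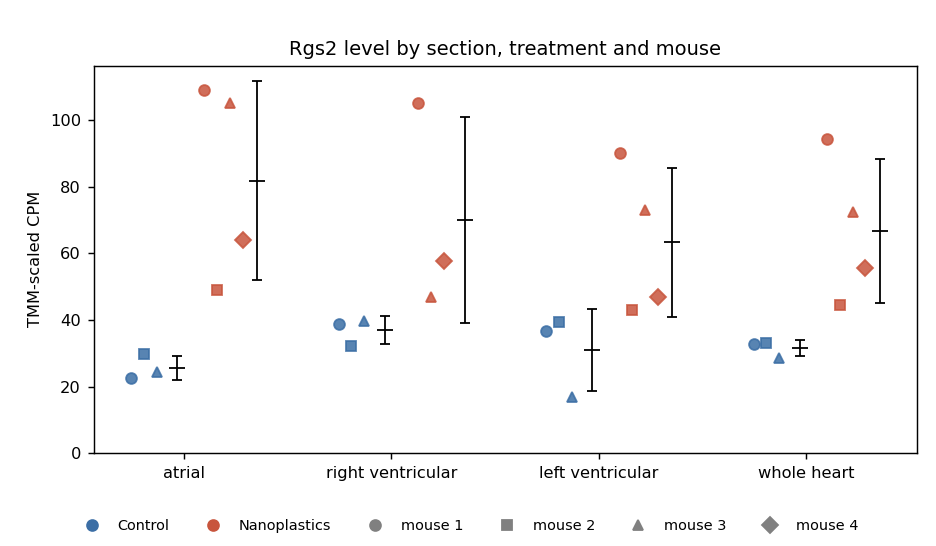
Rgs2 level in TMM-scaled CPM (y axis, linear from 0) in each library by section, and in each mouse with sections summed (whole heart). Points are libraries or mice, the shape is the mouse number (mice of the same number in the groups are different animals), and bars are mean and SD; all 11 nanoplastics points in the sections lie at 43.0 CPM or more and all 9 control points at 39.8 CPM or less.

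By section, the log2 change of Rgs2 was 1.63 in the atria (SE 0.29, edgeR adjusted p = 0.205), 0.85 in the right ventricle (SE 0.25, adjusted p = 0.0611) and 0.87 in the left ventricle (SE 0.26, adjusted p = 0.144). In the atria it had the smallest p of 5502 genes, none of which was called there by edgeR (0%; 674 had an unadjusted p under 0.05, and DESeq2 called 94 genes but gave Rgs2 no adjusted p). The change was larger in the atria than in the left ventricle by 0.78 on the log2 scale (SE 0.30, unadjusted p = 0.0118, adjusted p = 0.855 over 6269 genes, of which edgeR called none, 0%, and DESeq2 1; 345 had an unadjusted p under 0.05), so the difference between sections did not pass. It differed by -0.21 between right and left ventricle (SE 0.31, adjusted p = 1). These section values share the summed counts with the whole-heart value and are not further evidence for it. Between sections themselves, with mouse as a block, Rgs2 had log2 differences of 0.15 (atria against left ventricle), 0.01 (atria against right ventricle) and 0.01 (right against left ventricle), none called.

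The whole-heart call of Rgs2 held in 15 of 19 alternative analyses, with log2 changes from 0.80 to 1.22. It was lost without control mouse 2 (1.12, adjusted p = 0.122), without control mouse 3 (1.03, adjusted p = 0.0649), with atrial muscle RNA as a covariate (0.93, adjusted p = 0.13) and with the ventricles alone summed (0.80, adjusted p = 0.0501). Without control mouse 2, 0 of 8725 genes were called, against 217 with it. The 7 atrial muscle markers summed to 68 to 69000 CPM in nanoplastics atria and 235 to 603 CPM in control atria (1 of the 7 at 0 in each group), and the Rgs2 change was as large, 1.07 (SE 0.20, adjusted p = 0.0325), without the 3 libraries above 1000 CPM of Myl7, Myl4 and Sln. Markers of other cells also had positive whole-heart values, 7 of 7 tested for fibroblasts (median 0.59) and 4 of 4 for red blood cells (median 0.60). Heart muscle markers were positive in 6 of 6 (median 0.33), smooth muscle in 4 of 6 (median 0.36) and macrophage in 5 of 7 (median 0.18). For endothelium, 7 of 8 were negative (median -0.21). Of these, Dcn, which encodes the matrix proteoglycan decorin (edgeR adjusted p = 0.0466), and the troponin gene Tnni3 (edgeR adjusted p = 0.0183) were called. Of 3 ventricular muscle markers tested, 1 was positive, and it was called. Atrial muscle markers were positive in 6 of 6 tested (median 4.75), and 1 was called. Fibroblast markers summed to 1550 to 2850 CPM in nanoplastics and 1160 to 1920 CPM in control atria. Heart muscle markers summed to 47000 to 62300 and 38800 to 47100 CPM there, and red blood cell markers to 278 to 824 and 143 to 1310 CPM. In left ventricles, heart muscle markers did not overlap, at 50500 to 63300 CPM in nanoplastics mice and 38200 to 48300 CPM in controls. Fibroblast markers did not overlap there either (1450 to 1870 and 1160 to 1440 CPM), while red blood cell markers did (745 to 2050 and 81.8 to 961 CPM). In the atrial comparison, unlike the whole heart, red blood cell markers were negative in 4 of 4 (median -0.24). Outside the atrial muscle list, no marker of these lists was at 0, and the part of all the lists in the result was not tested. Outside the library of 4662 counts, the median annotated transcript length per count was lower in nanoplastics libraries in all 3 sections. In the atria it was 1318 to 1563 nt against 1697 to 1796 nt in controls. Right ventricles had 1473 to 1596 nt against 1698 to 1791 nt, and left ventricles 1499 to 1598 nt against 1633 to 1749 nt. The Rgs2 transcript has 3021 nt, and the median of tested genes is 3107 nt. With the length trend removed, the Rgs2 change was 1.15 (SE 0.20, edgeR adjusted p = 0.0278). The part of transcript length in the Rgs2 change was not tested.

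**Figure D2:**
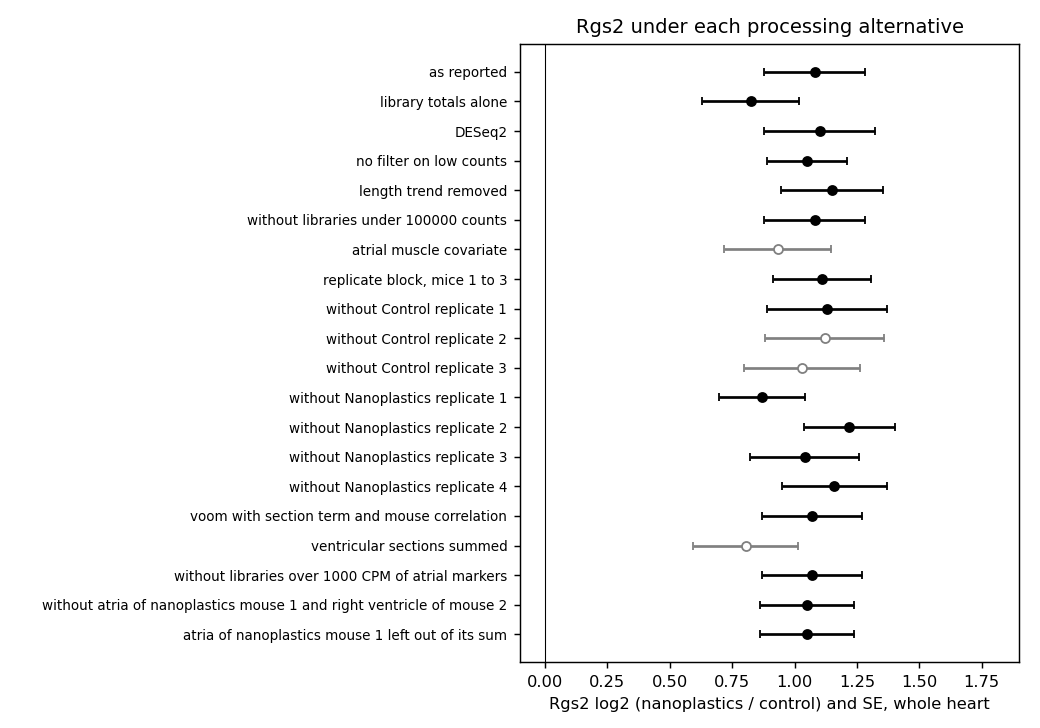
Log2 change of Rgs2 between nanoplastics and control whole hearts (x axis) with SE as bars, as reported and under 19 alternative analyses (y axis). Filled points have an adjusted p under 0.05; all values lie between 0.80 and 1.22, and the 4 open points are those that lost the call.

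Rgs5, which acts on Gi and Gq and marks pericytes, was called lower with nanoplastics in the right ventricle alone of the 3 sections, and not in the whole heart. There the controls had 385, 345 and 334 CPM and nanoplastics mice 1, 3 and 4 had 164, 302 and 113 CPM, without overlap (9.96% of genes tested were lower in the same way). It fell by 0.87 on the log2 scale (SE 0.24, edgeR adjusted p = 0.0456), from 354 ± 26.9 to 193 ± 97.8 CPM (SD, n = 3 each), as 1 of 39 genes called among 4489 (0.869%, 0.267% lower). Nanoplastics mouse 3 stood close to the controls and the other 2 well below them. The call held in 2 of 14 alternatives. It was lost when any single library other than that of nanoplastics mouse 3 was left out (edgeR adjusted p from 0.0888 to 0.33). It was also lost in DESeq2 (-1.05, adjusted p = 0.999) and with the length trend removed (-0.72, edgeR adjusted p = 0.263). Library totals gave -1.14 (edgeR adjusted p = 0.0254). The Rgs5 transcript, at 4096 nt, is longer than those of 67.1% of genes tested in the whole heart. The part of transcript length in the Rgs5 result was not tested.

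In the atria, Rgs5 stood at 332, 262 and 281 CPM in controls and at 103, 251, 227 and 239 CPM in nanoplastics mice. All 4 nanoplastics values lay below the lowest control (as for 5.91% of genes tested), and mouse 1, whose atrial library is the one rich in atrial muscle RNA, was far below the others; the log2 value was -0.52 (SE 0.25, edgeR adjusted p = 0.405). In the left ventricle, the controls had 381, 286 and 286 CPM and the nanoplastics mice 264, 290, 366 and 162 CPM, which overlapped (-0.26, SE 0.21, adjusted p = 0.613). Over the whole heart, 352, 287 and 289 CPM in controls stood against 191, 256, 290 and 192 CPM in nanoplastics mice, 309 ± 37.1 against 232 ± 49.1 CPM (SD, n = 3 and 4). The groups overlapped at mouse 3, and the log2 value of -0.42 (SE 0.15, adjusted p = 0.145) passed with library totals alone (-0.66, adjusted p = 0.0176). The right ventricular value was lower than the left by 0.67 on the log2 scale (SE 0.33, adjusted p = 1 over 6269 genes), so a difference between the ventricles was not shown. Between sections, Rgs5 differed by -0.25 (atria against left ventricle), -0.12 (atria against right ventricle) and -0.11 (right against left ventricle), none called.

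Other markers of pericytes showed no call. The 8 markers of the list summed to 103 to 136 CPM in control and 97.9 to 166 CPM in nanoplastics right ventricles, with none at 0 in all libraries of a group. Of the 4 tested there, 3 were negative and 0 were called, with a median of -0.13 against -0.01 for all genes. Colec11 had a log2 value of -0.39, Abcc9 and Kcnj8, which form a potassium channel of pericytes, had 0.36 and -0.26, and Higd1b had -0.01. In the atria, the list summed to 112 to 161 CPM in controls and 93.9 to 138 CPM in nanoplastics mice, and in the whole heart 0 of 6 tested were called, with a median of -0.14 against -0.03 for all genes. Smooth muscle markers summed to 610 to 651 CPM in control and 476 to 660 CPM in nanoplastics right ventricles, with 3 of 3 tested negative (median -0.08). Endothelial markers summed to 1110 to 1300 and 965 to 1340 CPM, with 3 of 5 negative (median -0.09). Red blood cell markers were positive in 4 of 4 (median 1.08), at 455 to 1560 and 1050 to 2990 CPM. No gene of these 3 lists was called or at 0 in a group. Heart muscle markers did not overlap there, at 40600 to 46800 CPM in controls and 49800 to 63700 CPM in nanoplastics mice. Nor did ventricular muscle (16200 to 17600 and 19400 to 23500 CPM) or fibroblast markers (1030 to 1310 and 1390 to 1760 CPM). Of single genes tested, 12.2% lay higher without overlap. Atrial muscle markers stood at 134 to 287 and 437 to 567 CPM, with 1 of 2 tested called higher. Macrophage markers overlapped. The part of all these lists in the Rgs5 result was not tested.

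**Figure D3:**
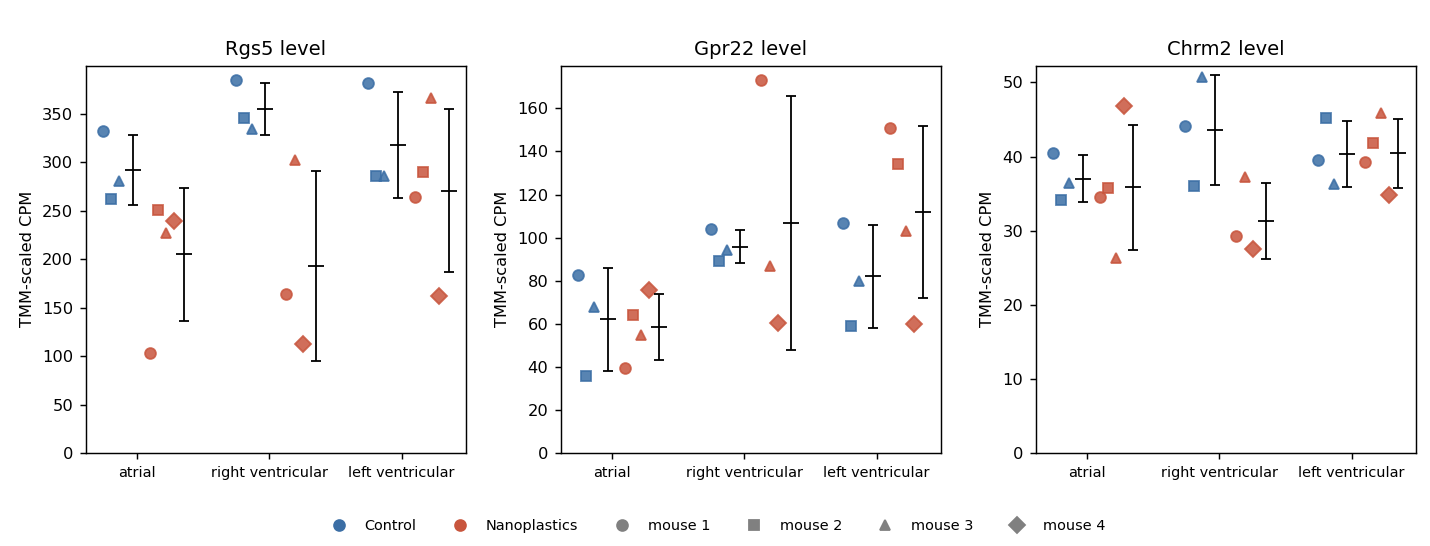
Levels of Rgs5, Gpr22 and Chrm2 in TMM-scaled CPM (y axes, linear from 0) by section. Points are libraries, colour is treatment, shape is mouse number, and bars are mean and SD; Rgs5 in the right ventricle shows controls at 334 to 385 CPM and nanoplastics mice at 113 to 302 CPM, while Chrm2 groups overlap in each section.

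Rgs4 and Rgs3, which also act on Gi and Gq, were low and gave no call. Rgs4 stood at 8.06, 8.09 and 13.5 CPM in control whole hearts and at 7.86, 8.26, 6.89 and 7.41 CPM in nanoplastics hearts. Control mouse 3 was above all others, its left ventricle at 26.6 CPM (11 counts), and the remaining mice were alike. The log2 value was -0.34 (SE 0.24, edgeR adjusted p = 0.497), and -0.30 in the atria and -0.50 in the left ventricle (adjusted p = 0.772 and 0.706). Rgs3 stood at 8.76, 6.65 and 6.31 CPM in controls and 4.86, 6.42, 5.08 and 5.70 CPM in nanoplastics mice, which overlapped at nanoplastics mouse 2 (-0.42, SE 0.25, adjusted p = 0.404). In the atria, Rgs3 had -0.74 (SE 0.49, adjusted p = 0.588), with 14.4, 9.01 and 5.6 CPM against 2.56, 10.8, 3.58 and 4.82 CPM. Neither gene passed the filter on low counts in the right ventricle, and Rgs3 did not pass it in the left ventricle. Rgs4 and Rgs5 are neighbouring genes on chromosome 1, and Rgs5 was present at a much higher level, so the pair were not alike in amount.

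Gpr22, the orphan receptor, was called between sections and not with treatment. Its atrial levels were 82.7, 36.0 and 67.9 CPM in controls and 39.7, 64.0, 54.9 and 75.7 CPM in nanoplastics mice. Right ventricular levels were 104, 89.0 and 94.1 CPM in controls and 173, 86.8 and 60.2 CPM in nanoplastics mice 1, 3 and 4, and left ventricular levels 107, 59.2 and 79.9 CPM and 151, 134, 103 and 60.0 CPM. The atrial section was lower than the right ventricle in 5 of 6 mice and lower than the left ventricle in 6 of 7, with nanoplastics mouse 4 as the exception in both. Gpr22 averaged 60.1 ± 17.6 CPM in the atria (SD, n = 7) and 101 ± 38.2 CPM in the right ventricle (SD, n = 6), lower in the atria by a log2 value of -0.70 (SE 0.17, edgeR adjusted p = 0.0366), as 1 of 30 genes called among 4954 (0.606%, 0.0807% lower). Other markers differed between the same pieces: red blood cell markers were lower in the atria in 4 of 4 (median -1.28, 2 called), fibroblast markers were higher in 4 of 4 (median 0.54, 2 called), and smooth muscle markers had positive values in 3 of 3 (median 1.55, none called). Their part in the Gpr22 result was not tested. Against the left ventricle, at 99.1 ± 35.2 CPM (SD, n = 7), the value was -0.66 (SE 0.19, adjusted p = 0.182), where 8 of 5176 genes were called (0.155%), and the ventricles differed by 0.14 (adjusted p = 0.987; 0.0200% of genes called).

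The section call of Gpr22 held in 10 of 22 alternatives. It was lost without the library of 4662 counts (-0.71, adjusted p = 0.525), in DESeq2 (-0.70, adjusted p = 0.623), with library totals (-0.64, adjusted p = 0.166), without the atria of control mouse 2 or nanoplastics mice 1 or 2, and without the right ventricle of control mouse 2 or nanoplastics mouse 1 (adjusted p from 0.0703 to 0.508), and with atrial muscle RNA as a covariate it was -0.15 (adjusted p = 1). Against the left ventricle it was called without the left ventricle or the atria of nanoplastics mouse 4 (-0.84 and -0.83, adjusted p = 0.00709 and 0.00781). Without the libraries above 1000 CPM of Myl7, Myl4 and Sln the values were -0.63 (adjusted p = 0.00852) against the right and -0.65 (adjusted p = 0.00231) against the left ventricle. The treatment values of Gpr22 were 0.16 in the whole heart, -0.08 in the atria, 0.14 in the right and 0.43 in the left ventricle (edgeR adjusted p from 0.523 to 0.931), and the groups overlapped in each. Gpr22 lies within the span of Cog5 on the other strand without shared exon bases, and since the use of strand in counting is not given, a share of its counts could come from Cog5, which stood at 19.6 ± 1.80 CPM in control and 19.9 ± 5.6 CPM in nanoplastics hearts (SD, n = 3 and 4).

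Chrm2, the muscarinic receptor that slows the heart, was close in the treatment groups. Its atrial levels were 40.5, 34.2 and 36.4 CPM in controls and 34.6, 35.7, 26.3 and 46.8 CPM in nanoplastics mice. Right ventricular levels were 44.1, 36.0 and 50.8 CPM in controls and 29.3, 37.2 and 27.6 CPM in nanoplastics mice 1, 3 and 4, and left ventricular levels 39.6, 45.2 and 36.3 CPM and 39.3, 41.9, 45.9 and 34.8 CPM. The whole-heart means were 39.1 ± 1.44 CPM (SD, n = 3) and 36.5 ± 1.85 CPM (SD, n = 4), a log2 value of -0.10 (SE 0.14, edgeR adjusted p = 0.785). The groups overlapped in every section, also in the right ventricle where the value was -0.44 (SE 0.28, adjusted p = 0.518). Between sections, Chrm2 averaged 36.4 ± 6.26 CPM in the atria, 37.5 ± 8.83 CPM in the right and 40.4 ± 4.18 CPM in the left ventricle, with adjusted p from 0.785 to 0.999. Chrm2 shares exon bases with 9330158H04Rik, a gene on the other strand that stood at 38.1 ± 0.477 CPM in control and 59.7 ± 25.2 CPM in nanoplastics hearts, so reads of the pair cannot be told apart where strand was not used.

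The adrenergic receptors were near the limit of what these libraries resolve. Adrb1, the beta receptor that drives rate and force, stood at 4.2, 6.11 and 4.02 CPM in control whole hearts (14 to 34 counts a mouse) and at 5.61, 5.05, 7.98 and 4.56 CPM in nanoplastics hearts (11 to 22 counts). The groups overlapped (log2 value 0.25, SE 0.28, edgeR adjusted p = 0.705), and in single sections the gene did not pass the filter. Adra1a, the alpha receptor coupled to Gq, had 3.50, 3.06 and 2.29 CPM in controls and 1.87, 0.918, 3.26 and 2.28 CPM in nanoplastics mice. Those levels overlapped and rest on 45 and 24 counts in all; pooled and without TMM scaling, they were 3.34 CPM in controls (95% exact Poisson interval 2.44 to 4.47) and 2.01 CPM in nanoplastics mice (1.29 to 2.99), intervals that cover counting error only. Adra1a passed the filter in no comparison, and a difference was not detectable at this depth. Adra1b, another alpha receptor coupled to Gq, stood at 3.80 ± 0.809 and 3.99 ± 0.899 CPM (SD, n = 3 and 4; log2 value 0.07, edgeR adjusted p = 0.937).

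**Figure D4:**
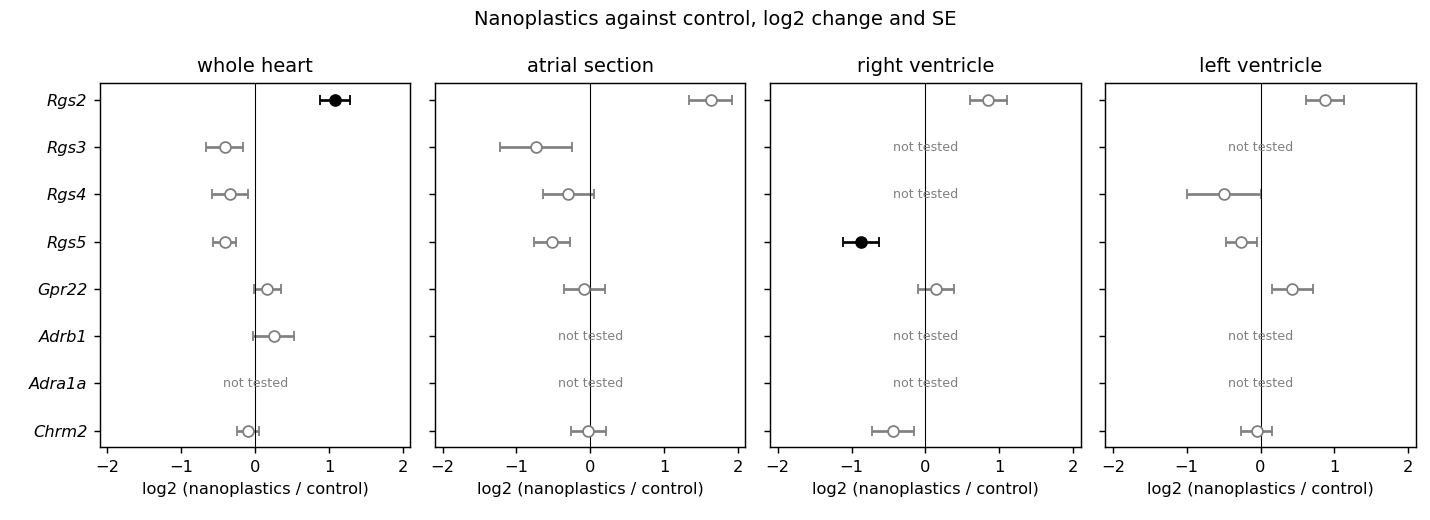
Log2 difference between nanoplastics and control (x axis) with SE as bars for the 8 genes in the whole heart and each section. Filled points have an adjusted p under 0.05, and "not tested" marks genes below the count filter; Rgs2 at 1.08 in the whole heart and Rgs5 at -0.87 in the right ventricle are the filled points.

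Among all 8 genes, 7 were tested in the whole heart (1 higher, Rgs2, beside 1.79% of all genes), 6 in the atria (none called, beside 0%), 4 in the right ventricle (1 lower, Rgs5, beside 0.267%) and 5 in the left ventricle, where none was called beside 0.0551% of all genes. The median log2 value of the 7 was -0.10 against -0.03 for all genes. Rgs2 and Rgs5 thus stood on opposite sides of 0 in the whole heart and in each section.

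The genes most like each member in level were found over the 20 deep libraries, by Pearson's r of log2 CPM among genes of at least 10 CPM. These libraries share mice, treatment, section and depth, so r is a description. Rgs2 was most like Cox17, Cox7b and Gsta3 (r = 0.84, 0.81 and 0.80); within the 9 control libraries r was 0.41, 0.12 and -0.12, and within the 11 nanoplastics libraries 0.65, 0.67 and 0.84. Cox17 is a copper chaperone and Cox7b a subunit of cytochrome c oxidase, and Gsta3 is a glutathione transferase. The likeness of Rgs2 to these genes was thus weak within controls. Rgs5 was most like Mmadhc, Ndufs6 and Wwp1 (r = 0.91, 0.90 and 0.90), Gpr22 like mt-Co1, Msl3 and Pln, which encodes the calcium pump inhibitor phospholamban (0.84, 0.83 and 0.82), and Chrm2 like Kpna3, Rab1a and Rnf128 (0.82, 0.78 and 0.76). In the same order, r within controls was 0.712, 0.777 and 0.561 for Rgs5 and 0.781, 0.883 and 0.633 for Gpr22. For Chrm2 it was 0.793, 0.423 and 0.525. Within nanoplastics libraries, r for these 3 members ran from 0.791 to 0.915. The other members were below 10 CPM and were not compared in this way.

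The rest of the pathway showed few calls. The 11 lists of other signalling genes hold 226 genes, 205 of them in the table; 100 were tested in the whole heart and 1 was called (1%, against 2.56% of all genes), and 10 had an unadjusted p under 0.05 (10%, against 18.2%). The called gene was Akap8, an anchor protein that binds protein kinase A, which fell from 12.8, 11.9 and 10.9 CPM in controls to 6.74, 6.88, 5.80 and 6.84 CPM in nanoplastics mice. Its groups did not overlap (log2 change -0.86, SE 0.22, edgeR adjusted p = 0.0415), as was true of 8.13% of genes tested in that direction. Of all genes tested, 0.766% were called lower. The Akap8 call held in 6 of 19 alternatives. It was lost when any single mouse was left out (edgeR adjusted p from 0.0598 to 0.162). It was also lost with the length trend removed (edgeR adjusted p = 0.0945) and with atrial muscle RNA as a covariate (adjusted p = 0.165).

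Adcy6, 1 of the 2 main adenylyl cyclases of heart muscle and so a direct effector of Gs and Gi, was close to a call. It stood at 6.66, 3.96 and 5.74 CPM in controls and at 1.12, 1.84, 2.90 and 2.85 CPM in nanoplastics mice (log2 value -1.27, SE 0.35, edgeR adjusted p = 0.0541), without overlap, as was true of 8.13% of genes tested. With no filter on low counts it was among 319 of 20960 genes called (1.52%, with 0.906% higher and 0.615% lower; -1.29, SE 0.36, adjusted p = 0.0282), on 80 and 25 counts in all. Adcy5, the other of these cyclases, had 4.91 ± 1.03 and 4.21 ± 1.88 CPM (adjusted p = 0.765), and the median of the 13 tested cyclases and phosphodiesterases was 0.05, with 8 positive and none called.

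The G proteins themselves gave no call. Of 7 alpha subunits tested, 2 were positive, with a median of -0.03. Gnas, which encodes the alpha subunit of Gs, stood at 252, 351 and 339 CPM in controls and 427, 335, 365 and 433 CPM in nanoplastics mice (0.31, edgeR adjusted p = 0.264), and Gnai2, of Gi, at 79.0, 86.5 and 81.5 against 71.8, 51.9, 76.1 and 58.7 CPM (-0.35, adjusted p = 0.203). The Gnas groups overlapped and the Gnai2 groups did not, as was true of 8.13% of genes tested in the same direction. Gnaq, of Gq, was level at 7.23 ± 1.17 and 7.2 ± 0.667 CPM. The 10 beta and gamma subunits had a median of 0.05 with 6 positive, and the 5 receptor kinases and arrestins a median of -0.01, with Grk2, the kinase that silences beta receptors, at 6.28 ± 0.963 and 6.14 ± 2.80 CPM.

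Downstream of Gq, the class on which Rgs2 acts, 14 of 16 tested effectors were negative and none was called. Their median was -0.19 against -0.03 for all genes, and a link to the Rgs2 level was not tested. Arhgef12 had the smallest p of the list, at 25.7 CPM in controls and 17 CPM in nanoplastics mice (-0.59, SE 0.20, edgeR adjusted p = 0.111). Agtr1a, the angiotensin receptor that couples to Gq, had 16.5 ± 1.88 and 14.5 ± 1.25 CPM (adjusted p = 0.64), and the 12 other heart receptors tested had a median of -0.05 with none called. Of 15 protein kinase A subunits and anchors, 8 were positive, and the catalytic subunit gene Prkaca was level at 11.8 ± 1.06 and 11.9 ± 2.15 CPM. The 6 other Rgs family genes tested, among them Rgs10 (10.6 and 13.3 CPM) and Rgs6 (4.68 and 4.37 CPM), had a median of -0.10 and none was called.

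The list for the muscarinic potassium channel, which Chrm2 opens, had 3 genes tested. Between atria and right ventricle 1 was called (0.606% of all genes), and between atria and left ventricle 0 (0.155% of all genes). The called gene, Kcnj5, averaged 15.8 ± 2.63 CPM in the atria (SD, n = 7), 7.27 ± 3.89 CPM in the right ventricle (SD, n = 6) and 12.4 ± 3.34 CPM in the left ventricle. It was higher in the atria than in the right ventricle (log2 difference 1.02, SE 0.26, edgeR adjusted p = 0.0222) and was called in 10 of 22 alternatives. Kcnj5 was the 1 called of 52 pathway genes tested there (1.92%), while 0.525% of all genes were called higher. The right ventricles of nanoplastics mice 1, 3 and 4 held 2, 3 and 2 Kcnj5 counts. That of mouse 2, the library of 4662 counts, held 1 and was part of the fit. Kcnj3, its partner, had 22.1 ± 5.65, 14.3 ± 3.77 and 20.1 ± 4.32 CPM (0.70 for atria against right ventricle, SE 0.22, adjusted p = 0.145), and Gnb5, a G protein beta subunit, had -0.26 (adjusted p = 0.936). With treatment, Kcnj3 had 16.8 ± 3.10 and 18.9 ± 4.08 CPM and Kcnj5 12.5 ± 1.03 and 10.9 ± 2.07 CPM in whole hearts, and neither was called.

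Immediate early genes were listed because Rgs2 itself can be induced like one. Of 22 listed, 11 were tested in the whole heart, none was called, 5 were positive and the median was -0.32. Fos and Egr1, transcription factor genes of the early response, did not pass the filter. Fos stood at 1.05, 0.539 and 0.574 CPM in controls (6, 3 and 2 counts) and at 2.99, 2.75, 5.08 and 2.56 CPM in nanoplastics mice (8, 6, 14 and 9 counts). Egr1 stood at 1.58, 1.08 and 1.43 CPM (9, 6 and 5 counts) and at 3.37, 3.21, 2.54 and 4.84 CPM (9, 7, 7 and 17 counts). Both were higher in every nanoplastics mouse than in any control, as were 7.94% of the genes that passed the filter. With no filter, Fos was called (log2 change 2.09, SE 0.51, edgeR adjusted p = 0.00698), as were 0.906% of genes in that direction, and Egr1 was not (1.35, SE 0.44, adjusted p = 0.0907). Among the tested early genes, the lowest value was that of Ier3 (14 CPM in controls and 8.19 CPM in nanoplastics mice, -0.85, edgeR adjusted p = 0.0829) and the highest that of Nr4a1 (3.74 and 6.66 CPM, 0.98, adjusted p = 0.589). The signs within the list were mixed.

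**Figure D5:**
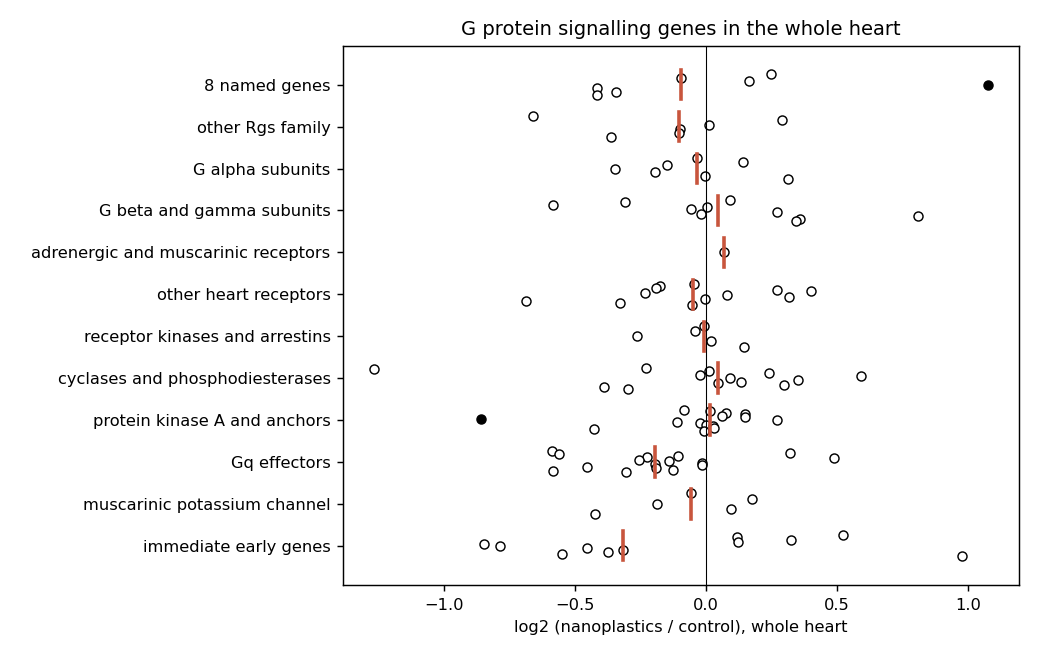
Log2 difference between nanoplastics and control whole hearts (x axis) for the tested genes of the 8 named and of 11 lists of other G protein signalling genes (y axis). Each point is a gene, filled where the adjusted p is under 0.05 (Rgs2 at 1.08 and Akap8 at -0.86), and the red bar is the list median, lowest for immediate early genes at -0.32.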

How the data were processed

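Bulk RNA libraries of mouse heart sections came from a plate kit, Singleron AccuraCode, which adds a barcode for each well at the 5′ end by template switching, and were sequenced in pairs on a NovaSeq, per the labels' protocols. STAR, an aligner, is named in the submitters' processing notes without a version. The genome build, the annotation, the counter and whether strand or molecular identifiers were used are details the sources used here do not give, so counts that are copies of a molecule may not be independent. The authors deposited raw counts for 20960 gene symbols, which were used unchanged.

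The tests ran in edgeR 4.0.16 under R 4.3.3 (filterByExpr, TMM, robust quasi-likelihood test, Benjamini-Hochberg adjustment over all genes tested), and limma 3.58.1 and DESeq2 1.42.0 served as alternatives. Treatments were compared within each section and with the 3 sections of a mouse summed, sections in pairs with mouse as a block, and the difference of treatment effects between sections as an interaction over all libraries. CPM are relative to the library total times the TMM factor. Transcript lengths are the longest in GENCODE M21. The members, the lists and the tests were chosen with earlier results of these data known. Named genes are the members, up to 4 called genes per list and direction, 14 fixed genes and the 3 genes most like each member; Akap8 and Kcnj5 enter as called. Of the fixed genes, 1 is not reported here. Arhgef12, Abcc9, Kcnj8, Higd1b, Colec11, Dcn, Tnni3, Gnb5, Rgs10, Rgs6, Ier3 and Nr4a1 were named after their values were seen. The steps were tested on simulated counts. Alternatives were library totals, DESeq2, no filter, a length offset, an atrial covariate, a replicate block, leaving out libraries, and, for the whole heart, limma voom and ventricles alone. Leaving out atrial-rich libraries was added after the data were seen.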

Additional observations from a re-analysis of the deposited data

Results flagged for a closer look

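Each of the 8 genes was checked in its 3 groups of 4 samples, 24 groups in all, for a sample whose gap to its nearest neighbour was large against the range of the group (Dixon's 95% critical value), and 2 groups had one. Chance marks about 1 in 20 such groups. Rgs5 in the nanoplastics atria had mouse 1 at 103 CPM, while the other 3 mice stood at 227 to 251 CPM, a gap of 0.837 of the range. This is the library with 38990 CPM of Myl7, Myl4 and Sln before scaling, and the part of atrial muscle RNA in the low value was not tested. Adra1a in the nanoplastics left ventricle had mouse 3 at 3.74 CPM, with the others at 2.18 to 2.40 CPM, a gap of 0.86 of the range on 4 counts.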

How the results depend on the processing

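Of 993 alternative values for the members, Akap8 and Kcnj5, 867 counted as kept, 52 lost the call, 11 gained it and 63 changed sign. A kept value had the same direction and side of the threshold. Where DESeq2 gave no adjusted p, as for Akap8 in the whole heart, a value counted as kept by direction alone. Members called numbered 1 in the whole heart as reported, and 2 with library totals, 0 with the atrial covariate, 0 with ventricles alone and 0 to 1 with a mouse left out. In the atria 0 were called as reported, 1 with no filter, and 0 to 1 with a library left out. In the right ventricle 1 was called as reported, 0 with DESeq2, no filter, the length offset, the atrial covariate or without the library of 4662 counts, and 0 to 2 with a library left out. In the left ventricle 0 were called as reported and 1 with no filter or the covariate. For atria against left ventricle the count was 0, and 1 with no filter or without atrial-rich libraries, and 0 to 1 with a library left out. For atria against right ventricle it was 1, and 0 with totals, DESeq2, the length offset, the covariate or without the library of 4662 counts, and 0 to 1 with a library left out. The cause of these shifts was not tested.

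Replicate numbers name different animals in the groups, and same-numbered mice had correlations of deviations from -0.0426 to 0.0902 in the whole heart, so they were not treated as pairs. With the replicate block over mice 1 to 3, Rgs2 had 1.11 in the whole heart (adjusted p = 0.00854), and members called were 1 in the atria (Rgs2, 1.68, adjusted p = 0.0104) and 0 in the right ventricle. Without the replicate block, 0 members were called between atria and right ventricle. All genes called in the whole heart moved from 217 to 315 with the block and from 0 to 88 in the atria.

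Every sign change was in a value that was not called. Chrm2 with treatment turned to 0.018 (no filter) and 0.162 (length offset) in the atria, to 0.0236 (length offset), 0.0213 (replicate block) and 0.0158 (without atrial-rich libraries) in the left ventricle, and to 0.021 (length offset) in the whole heart. Its atrial minus left ventricular effect turned to -0.00531 with totals. Gpr22 turned to 0.0678 (length offset) and 0.0706 (covariate) in the atria, to -0.17 (totals) and -0.0134 (no filter) in the right ventricle and to -0.0822 (totals) in the whole heart. Rgs2, atria against right ventricle, turned to -0.0324 (length offset), -0.00885 (without the library of 4662 counts), -0.00894 (covariate) and -0.0336 (without atrial-rich libraries), and right against left ventricle to -0.041 (no filter), -0.0176 (covariate) and -0.0834 (no replicate block). Rgs4 turned to 0.101 in DESeq2 for the right minus left ventricular effect, and Rgs5 to 0.0466 with the covariate for atria against left ventricle.

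With a library left out, values ranged from -0.216 to 0.0838 for Chrm2 in the atria, -0.119 to 0.0546 in the left ventricle, -0.191 to 0.044 for atria against right ventricle and -0.208 to 0.235 for its atrial minus left ventricular effect. They ranged from -0.343 to 0.184 for Gpr22 in the atria and -0.332 to 0.379 in the right ventricle. For Rgs2 they ranged from -0.23 to 0.156 (atria against right ventricle), -0.0866 to 0.136 (right against left) and -0.45 to 0.0986 (right minus left effect). The right minus left effect ranged from -0.235 to 0.818 for Rgs3 and -0.541 to 0.461 for Rgs4, and the atrial minus left effect from -0.0792 to 1.02 for Rgs4 and -0.607 to 0.00391 for Rgs5.

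Genes called in the whole heart, 217 as reported, numbered 797 with totals, 333 with DESeq2, 85 with the length offset, 0 with the covariate, 137 with ventricles alone, 23 without atrial-rich libraries and 0 to 201 with a mouse left out. In the right ventricle 39 became 234 with totals, 0 with DESeq2 or the length offset, 20 with no filter, 4 with the replicate block, 68 without the library of 4662 counts, and 4 (without control mouse 1) to 175 (without nanoplastics mouse 3) with a library left out. Left ventricular calls went from 3 to 80 with DESeq2 and 23 with totals, and for atria against right ventricle from 30 to between 0 (no replicate block) and 95 (without the right ventricle of nanoplastics mouse 4). Depth limits Rgs3, Rgs4, Adrb1 and Adra1a, below 10 CPM.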
